A study of Mus musculus with 2 samples.

Results

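The genes described here encode the junctions and keratins that hold epithelial cells together, with vimentin and the transcription factors that act on them in epithelial-to-mesenchymal transition (EMT). They are 45 genes chosen by symbol, out of 51912 rows with Ensembl gene identifiers in the deposited table, and all 45 were found in it. The co-culture library came from cells labelled as 4T1, grown for 3 days in the lower chamber of a transwell. M2 macrophages, a polarised form often linked to tissue repair, were in the upper chamber. The control library came from cells labelled only as control 4T1, and the labels do not say whether an empty insert was present. The 4T1 line is a mammary carcinoma line from a BALB/c mouse, and no genotype, strain or age is given in the labels. Both groups had 1 library, so each value is a single measurement with no replicate error, and no test between the groups could be made. The title of the co-culture library calls the cells 4T2, and its treatment label, followed here, calls them 4T1.

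Epithelial sheets are sealed and anchored by adherens junctions, tight junctions and desmosomes. In adherens junctions a cadherin binds its like on the next cell and catenins tie it to actin. In tight junctions claudins and occludin seal the gap and zonula occludens proteins form the scaffold, and in desmosomes desmogleins and desmocollins are tied through plakoglobin, plakophilins and desmoplakin to keratin filaments. In EMT, SNAI, TWIST and ZEB factors repress E-cadherin and other epithelial genes, and vimentin filaments become prominent. Carcinoma cells can hold features of both states.

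Transcripts of catenins, simple-epithelial keratins and vimentin were abundant in both libraries, while those of E-cadherin, Epcam and the desmosomal cadherins were at or near 0. Levels are given in TPM, a transcript abundance divided by transcript length and scaled to a fixed total per library, so that levels of different genes can be compared. A gene was called detected at a mean of at least 1 TPM over both libraries. By this rule 22 of the 45 genes were detected and 23 were not, against 52.4% not detected among all 21793 protein-coding genes. Of all 45, 10 were listed at 0 in both libraries, against 38.3% of protein-coding genes. The share not detected was thus close to that of protein-coding genes at large, and the share at 0 was below it. No undetected gene exceeded 0.32 TPM in either library, which was the value of Krt14 in co-culture, and the detected gene with the lowest mean was Krt19 at 1.41 TPM. Among 142 genes for RNA polymerase II, NADH dehydrogenase, mitochondrial ribosome, eIF3 and MCM subunits, 0 were at 0 in either library. That count does not show how often genes of low level are listed at 0. TPM gives no depth, so the limit that a 0 sets on a gene's level is unknown.

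The detected genes differed little between the libraries. Ratios are log2((co-culture TPM + 1)/(control TPM + 1)), which understates the change of genes with low levels. In co-culture 17 of the 22 values were higher and 5 were lower, which is 77.3% higher against 64.5% of all 11258 detected genes. Their median ratio was 0.30, against 0.17 over all detected genes. Of the 22, 1 (Krt19) was at least 2-fold higher, where 4.95% of all detected genes were. Likewise 1 (Cdsn) was at least 2-fold lower, where 2.14% of all detected genes were. Both shares were near those of all genes. At a limit of 1.5-fold 6 of 22 were higher and 1 was lower, against 18.6% and 6.37% of all detected genes. Of the ratios 11 lay between the 25th and 75th percentiles of all detected genes, -0.14 and 0.48, with 8 above and 3 below. In bulk RNA, fewer cells of a kind and less RNA per cell cannot be told apart. Counts in each direction moved with the scaling of the libraries. Over all detected genes 557 were 2-fold higher and 241 lower (69.8% higher), against 400 and 293 (57.7% higher) after scaling by the median gene (a log2 shift of 0.12), and 337 and 354 (48.8% higher) with a TMM factor (a log2 shift of 0.19). With these scalings 16 and 15 of the 22 members were higher.

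**Figure D1:**
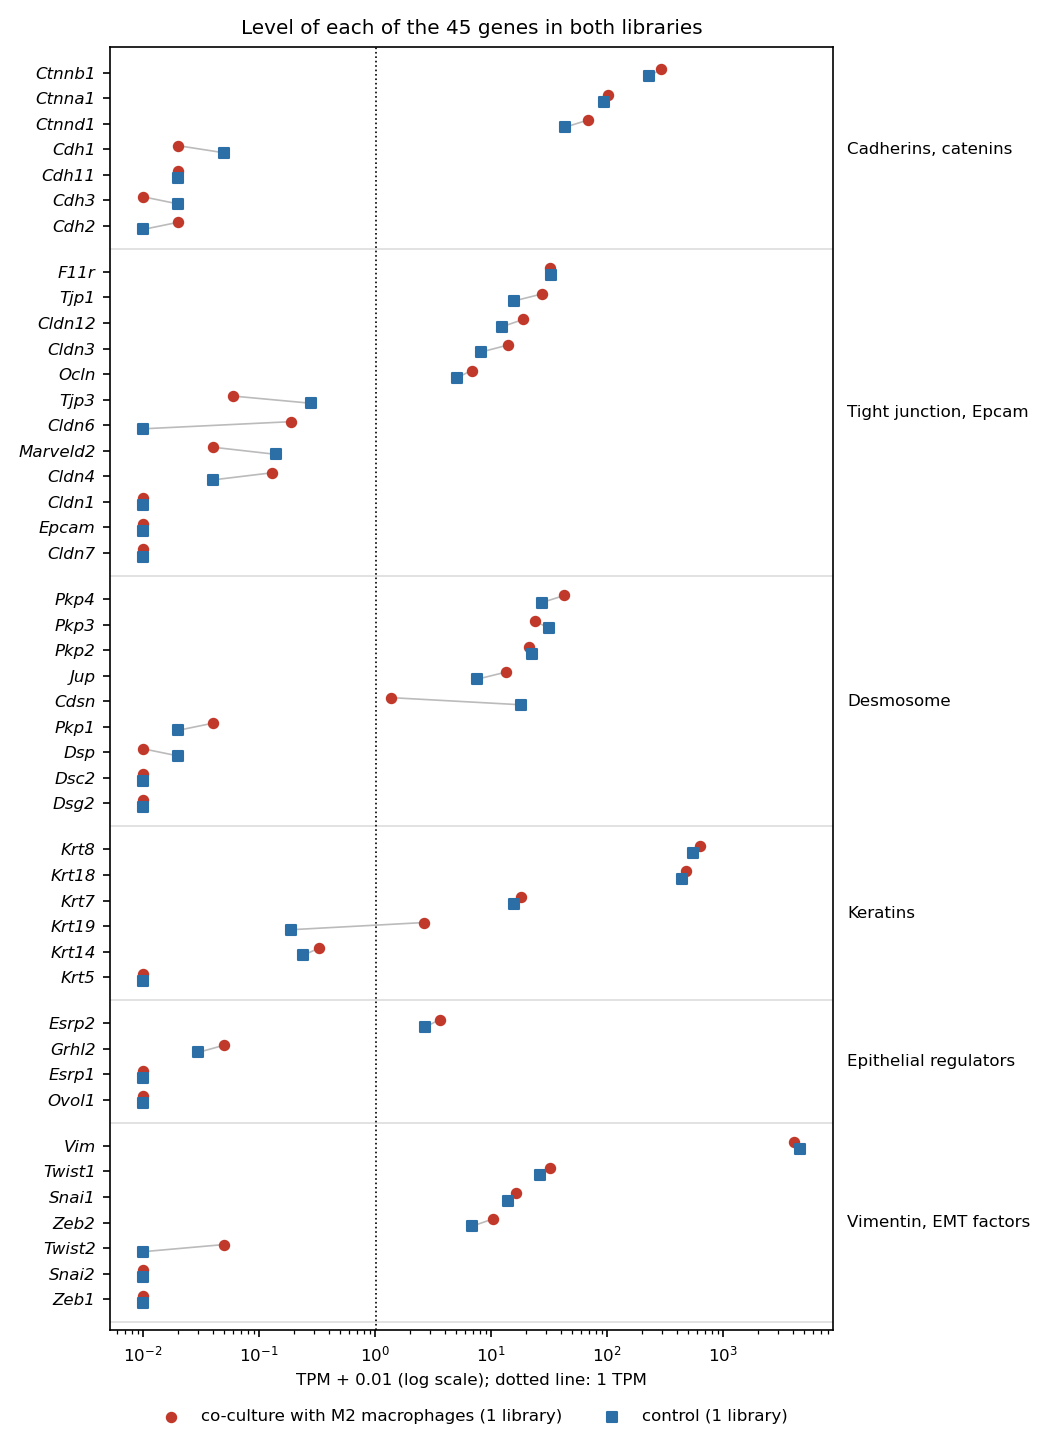
Level of each of the 45 genes in TPM plus 0.01 on a log axis, with the co-culture library as red circles above the control library as blue squares. Genes are grouped by role and ordered by mean level, and the dotted line marks 1 TPM. Both points of each detected gene lie to the right of it except for Krt19, whose control value is 0.18 TPM, and the 23 undetected genes lie at or under 0.32 TPM.

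Catenin transcripts were abundant and cadherin transcripts were hardly found. Cdh1, which encodes E-cadherin, the defining cadherin of epithelia, had 0.01 TPM in co-culture and 0.04 TPM in the control. The N-cadherin gene Cdh2 had 0.01 TPM in co-culture and 0 in the control. Cdh3, which encodes P-cadherin and lies 46.1 kb from Cdh1 on chromosome 8, was at 0 in co-culture and 0.01 TPM in the control. Cdh11, a cadherin of mesenchymal cells, was at 0.01 TPM in each library. The 4 cadherins thus summed to 0.03 TPM in co-culture and 0.06 TPM in the control, so neither the epithelial nor the mesenchymal cadherins were present at more than a trace. The 3 catenins summed to 465 TPM in co-culture and 370 TPM in the control. Ctnnb1, which encodes beta-catenin, both a junction protein and the effector of Wnt signalling, had 294 TPM in co-culture and 232 TPM in the control (log2 ratio 0.34). It overlaps Ulk4 on the opposite strand, which had 31.01 TPM in co-culture and 18.7 TPM in the control. Ctnna1, whose product alpha-catenin binds actin, had 102 TPM in co-culture and 94.6 TPM in the control, a log2 ratio of 0.11 that was -0.0010 with the median gene scaling and -0.07 with the TMM factor. Ctnnd1, which encodes the p120 catenin that stabilises cadherins at the membrane, had 68.1 TPM in co-culture and 43.6 TPM in the control (log2 ratio 0.63). All 3 catenins had higher values in co-culture as deposited, where 64.5% of all detected genes were higher, and none reached 2-fold.

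Low levels extended over the whole cadherin family. Among 23 protein-coding genes with a Cdh symbol, 13 were listed at 0 in both libraries and 1 was detected, Cdh24, at 3.74 TPM in co-culture and 2.50 TPM in the control. Among all protein-coding genes 38.3% were at 0 in both libraries and 52.4% were not detected. Nectins, the other adhesion receptors of adherens junctions, were better represented, with 3 of 4 detected. Nectin2 had 41.9 TPM in co-culture and 30.9 TPM in the control, and Nectin4 was the one not detected.

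Of the 12 tight junction members 5 were detected and 7 were not, and claudins and scaffold genes were found on both sides. Epcam, the epithelial adhesion molecule that binds claudins, and the claudin genes Cldn1 and Cldn7 were listed at 0 in both libraries. Cldn4 had 0.12 TPM in co-culture and 0.03 TPM in the control, and Cldn6, a claudin of embryonic epithelia, had 0.18 TPM in co-culture and 0 in the control. Marveld2 (tricellulin), which seals the corners where cells meet, had 0.03 TPM in co-culture and 0.13 TPM in the control. Tjp3, a zonula occludens gene, had 0.05 TPM in co-culture and 0.27 TPM in the control, and it overlaps the expressed gene Apba3 on the opposite strand. All 7 of these genes were under the detection limit in each library.

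The detected tight junction members were within 2-fold between the libraries. Tjp1, the best known zonula occludens scaffold gene, had 27.7 TPM in co-culture and 15.7 TPM in the control (log2 ratio 0.78). Cldn3, a barrier-forming claudin, had 14.1 TPM in co-culture and 8.14 TPM in the control (0.72), and Cldn12 had 19.0 TPM in co-culture and 12.5 TPM in the control (0.56). Ocln, which encodes occludin, had 6.79 TPM in co-culture and 5.09 TPM in the control (0.36). F11r, which encodes a junctional adhesion molecule also found on blood cells, stood at 32.0 TPM in co-culture and 32.9 TPM in the control (-0.04). Their median ratio was 0.56, against 0.17 over all detected genes. Of the 5, 4 had higher values in co-culture, where 64.5% of all detected genes were higher. Some neighbouring genes of like function had very different levels, while others, such as Cdh1 and Cdh3 or Krt8 and Krt18, did not. Cldn3 and Cldn4 lie 39.3 kb apart on chromosome 5 and Ocln and Marveld2 43.2 kb apart on chromosome 13, and in each of these pairs 1 gene was detected and the other was not.

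Transcripts of the desmosomal cadherins and of the keratin anchor were not detected. Dsc2 and Dsg2, the desmocollin and desmoglein of simple epithelia, were listed at 0 in both libraries. So were all 9 protein-coding desmoglein and desmocollin genes, against 38.3% of all protein-coding genes. Dsp, which encodes desmoplakin, the link to keratin filaments, was at 0 in co-culture and 0.01 TPM in the control. Pkp1, a plakophilin of stratified epithelia, had 0.03 TPM in co-culture and 0.01 TPM in the control. The remaining plaque genes were present. Pkp2 had 21.1 TPM in co-culture and 22.5 TPM in the control (log2 ratio -0.09), and Pkp3 had 23.8 TPM in co-culture and 31.6 TPM in the control (-0.39). Pkp4, whose product is found at adherens junctions as well as desmosomes, had 43.0 TPM in co-culture and 27.4 TPM in the control (0.63). Jup, which encodes plakoglobin, the catenin shared by desmosomes and adherens junctions, had 13.5 TPM in co-culture and 7.56 TPM in the control (0.76). Pkp3 and Pkp2 were thus slightly lower and Pkp4 and Jup higher in co-culture, all within 2-fold.

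Cdsn had the largest difference of the set. It encodes corneodesmosin, a secreted adhesion protein of the desmosomes of cornified skin. The gene (ENSMUSG00000039518; chromosome 17 from 35552128 to 35557180 in GRCm38) had 1.37 TPM in co-culture and 18.3 TPM in the control, a log2 ratio of -3.03. It ranked 10973rd by level in the co-culture library and 4799th in the control library. The ratio was -3.65 with a pseudocount of 0.1 and -1.87 with a pseudocount of 5, so its direction and its place past 2-fold held with both. The nearest protein-coding neighbours, Psors1c2 and 2300002M23Rik, were listed at 0 in both libraries, so they cannot show a difference. Cchcr1, the next gene before Psors1c2, did not share that of Cdsn, with 17.6 TPM in co-culture and 16.3 TPM in the control.

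Simple-epithelial keratins were the abundant epithelial feature of these cells. Krt8 and Krt18 encode the type II and type I keratins that pair in simple epithelia. Krt8 had 630 TPM in co-culture and 548 TPM in the control (log2 ratio 0.20), and Krt18 had 484 TPM in co-culture and 439 TPM in the control (0.14). They lie 23.7 kb apart on chromosome 15, and Krt8 was 1.30 times Krt18 in co-culture and 1.25 times in the control, so the balance of the partners was similar. With the TMM factor the ratios of Krt8 and Krt18 were 0.01 and -0.05. Krt7, another simple-epithelial type II keratin, had 18.3 TPM in co-culture and 15.9 TPM in the control (0.19, and 0.02 with the TMM factor). All type II members together were 1.33 times the type I members in co-culture and 1.28 times in the control. The basal keratins were near 0. Krt5 was listed at 0 in both libraries and its partner Krt14 had 0.32 TPM in co-culture and 0.23 TPM in the control. Krt19, a type I keratin of ductal epithelia, had 2.64 TPM in co-culture and 0.18 TPM in the control, a log2 ratio of 1.63. Its level was low in each library, and its ratio was 3.29 with a pseudocount of 0.1 and 0.56 with a pseudocount of 5, under the 2-fold limit. Among all 53 protein-coding genes with a Krt symbol, 5 were detected, namely Krt7, Krt8, Krt18, Krt19 and Krt80. Over all protein-coding genes 52.4% were not detected.

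**Figure D2:**
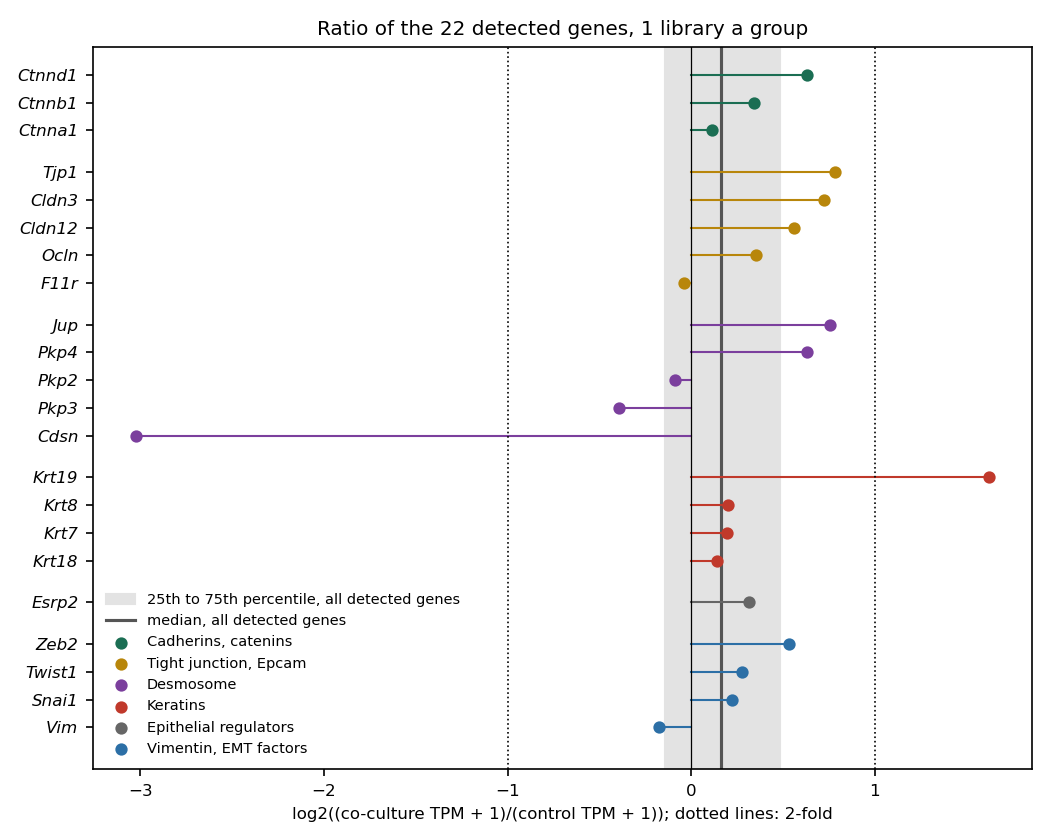
Log2 ratio of co-culture to control for the 22 detected genes, grouped by role, 1 library a group and no error bars. Grey marks the middle of the distribution of all 11258 detected genes (-0.14 to 0.48, median 0.17) and the dotted lines mark 2-fold. Cdsn at -3.03 and Krt19 at 1.63 are the 2 genes outside the dotted lines.

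Of the 4 regulators of epithelial identity 1 was detected. Esrp1 and Esrp2 encode splicing factors that maintain epithelial splice forms. Esrp1 was listed at 0 in both libraries, and Esrp2 had 3.61 TPM in co-culture and 2.71 TPM in the control (log2 ratio 0.31). Esrp2 overlaps the expressed gene Nfatc3 on the opposite strand. Grhl2, a transcription factor that activates E-cadherin and claudin genes, had 0.04 TPM in co-culture and 0.02 TPM in the control. Ovol1, which encodes a repressor of the ZEB genes, was listed at 0 in both libraries.

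Of each EMT factor family, 1 member was detected. Snai1 had 16.4 TPM in co-culture and 13.96 TPM in the control (log2 ratio 0.22), and Snai2 was listed at 0 in both libraries. Twist1 had 32.3 TPM in co-culture and 26.5 TPM in the control (0.28), and Twist2 had 0.04 TPM in co-culture and 0 in the control. Zeb2 had 10.4 TPM in co-culture and 6.87 TPM in the control (0.53), and Zeb1 was listed at 0 in both libraries. The order Twist1, Snai1, Zeb2 was the same in both libraries, with Twist1 at 3.11 times Zeb2 in co-culture and 3.85 times in the control. All 3 had higher values in co-culture, where 64.5% of all detected genes were higher, and none was 2-fold different. With the TMM factor the ratios of Snai1, Twist1 and Zeb2 were 0.04, 0.09 and 0.36. Vim, which encodes vimentin, was the most abundant of the 45 genes, at 4066 TPM in co-culture and 4590 TPM in the control (-0.18), and ranked 33rd of all Ensembl genes in each library. Vim was 6.45 times Krt8 in co-culture and 8.37 times in the control, so vimentin and simple keratins were both abundant.

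Promoter sequences are shown for 6 genes that span the pattern, namely Epcam and Cldn4 among the undetected genes, Cldn3 beside Cldn4, the abundant Krt8 and Krt18, and Cdsn. Each runs from 250 bases before to 30 bases from the RefSeq start (GRCm38.p6), 5′ to 3′ on the gene's strand. Capitals mark CACCTG or CAGGTG, the E-box letters that SNAI and ZEB factors are known to bind. Each is the other's reverse complement, so both strands are covered. Epcam is from chr17:87635729-87636008 (plus strand), Cldn3 from chr5:134985964-134986243 (plus), Cldn4 from chr5:134946905-134947184 (minus), Krt8 from chr15:102004313-102004592 (minus), Krt18 from chr15:102027966-102028245 (plus) and Cdsn from chr17:35551878-35552157 (plus).
Epcam: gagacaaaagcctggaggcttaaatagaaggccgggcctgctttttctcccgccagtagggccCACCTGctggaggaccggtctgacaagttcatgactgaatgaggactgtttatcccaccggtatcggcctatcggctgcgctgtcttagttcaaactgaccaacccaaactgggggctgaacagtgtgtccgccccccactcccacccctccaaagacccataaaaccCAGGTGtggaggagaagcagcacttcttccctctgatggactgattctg
Cldn4: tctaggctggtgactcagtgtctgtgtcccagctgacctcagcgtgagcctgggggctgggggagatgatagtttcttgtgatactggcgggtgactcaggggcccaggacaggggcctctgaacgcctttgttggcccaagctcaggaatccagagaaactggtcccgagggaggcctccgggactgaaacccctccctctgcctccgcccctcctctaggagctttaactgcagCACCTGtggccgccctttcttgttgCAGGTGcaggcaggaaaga
Cldn3: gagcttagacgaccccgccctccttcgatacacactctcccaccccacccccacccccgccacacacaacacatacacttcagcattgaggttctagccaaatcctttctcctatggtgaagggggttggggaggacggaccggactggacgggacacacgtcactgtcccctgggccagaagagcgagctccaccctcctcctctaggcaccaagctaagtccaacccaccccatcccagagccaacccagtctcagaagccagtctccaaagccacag
Krt8: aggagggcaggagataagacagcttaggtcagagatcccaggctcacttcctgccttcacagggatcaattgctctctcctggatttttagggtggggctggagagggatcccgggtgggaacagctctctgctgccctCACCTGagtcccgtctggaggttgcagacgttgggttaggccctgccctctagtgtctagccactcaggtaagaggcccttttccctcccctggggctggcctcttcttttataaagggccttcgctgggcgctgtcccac
Krt18: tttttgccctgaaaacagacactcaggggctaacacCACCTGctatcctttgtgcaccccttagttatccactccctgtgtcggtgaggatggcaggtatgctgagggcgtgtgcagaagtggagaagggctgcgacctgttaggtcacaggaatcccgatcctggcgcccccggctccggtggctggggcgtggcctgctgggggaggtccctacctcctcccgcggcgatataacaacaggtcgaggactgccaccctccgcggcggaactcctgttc
Cdsn: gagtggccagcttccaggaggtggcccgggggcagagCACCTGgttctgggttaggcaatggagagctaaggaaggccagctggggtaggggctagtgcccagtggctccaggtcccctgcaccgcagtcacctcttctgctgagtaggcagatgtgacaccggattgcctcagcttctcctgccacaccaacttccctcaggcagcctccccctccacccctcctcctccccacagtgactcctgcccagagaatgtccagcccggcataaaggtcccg

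Counting the start base as 0, the letters begin at -187 and -19 in Epcam, at -14 and 11 in Cldn4, at -111 in Krt8, at -214 in Krt18 and at -213 in Cdsn, and Cldn3 has none in this window. The RefSeq starts used for Krt8 and Krt18 lie 140 and 36 bases inside the genes as annotated in GENCODE M21. The letters of Krt8 therefore fall within its GENCODE gene. RefSeq windows were matched for 28 of the 45 genes, some with several starts, and Cdh1 was not among the 28. The letters were in 8 of 11 undetected genes and in 8 of 17 detected genes with a window. No share per gene was computed over all genes, and the difference was not tested. Cldn1, Krt14 and Twist2 were the undetected genes without the letters, while both windows of the detected Ocln had them. By window the letters were in 19 of 41 of the set (46.3%) and in 19.1% of all 32851 windows of this length. A match describes the letters only, and binding was not measured.

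**Figure D3:**
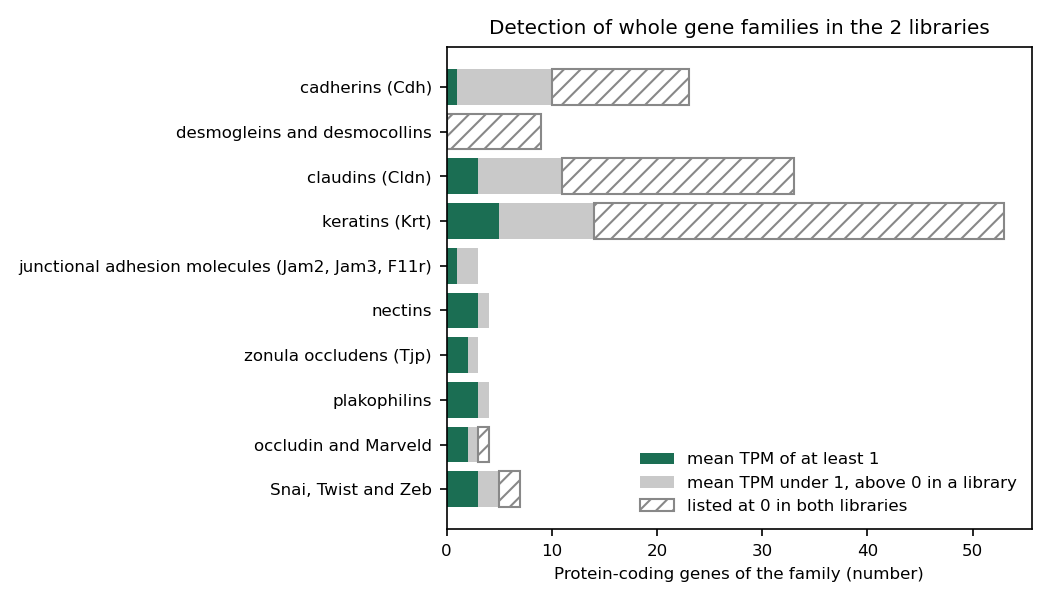
Number of protein-coding genes per family that had a mean of at least 1 TPM (green), a lower mean above 0 (grey) or 0 in both libraries (hatched). Cadherins (1 of 23 detected), desmosomal cadherins (0 of 9), claudins (3 of 33) and keratins (5 of 53) were mostly undetected. Nectins and plakophilins had 3 of 4 detected each. Among all protein-coding genes 52.4% were undetected.

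Other genes of the same processes were taken from 6 lists with 145 genes, 144 of them in the table. Of these 57 were detected, 44 higher and 13 lower in co-culture as deposited, where 64.5% of all detected genes were higher, with a median ratio of 0.45. At least 2-fold, 3 of the 57 were higher and 0 were lower, against 4.95% and 2.14% of all detected genes, so the share past 2-fold was near that of all genes. In the adherens list 10 of 21 were detected and 9 had higher values. Plekha7, an adherens junction protein that links to microtubules, had 8.09 TPM in co-culture and 3.95 TPM in the control (log2 ratio 0.88). Vcl (vinculin) had 73.2 TPM in co-culture and 42.9 TPM in the control (0.76), Lima1, an actin-binding gene, had a ratio of 0.75, and Afdn, the nectin partner, had a ratio of 0.49. In the tight junction and polarity list 12 of 34 were detected and 8 had higher values. Pard6b, a cell polarity gene, had 7.69 TPM in co-culture and 4.81 TPM in the control (0.58). Cxadr, Lsr and Prkci had ratios of 0.57, 0.48 and 0.29. No gene of these lists reached 2-fold.

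In the list of desmosome and hemidesmosome genes 6 of 16 were detected and 5 had higher values, with a median ratio of 0.74. Over all detected genes 64.5% were higher, with a median ratio of 0.17. Plec, which encodes plectin, a linker of intermediate filaments, had 39.4 TPM in co-culture and 19.2 TPM in the control (log2 ratio 0.9996, just under the 2-fold limit). Ppl (periplakin) had 13.1 TPM in co-culture and 6.20 TPM in the control (0.97), and the laminin-receptor integrin gene Itga6 had 94.4 TPM in co-culture and 51.6 TPM in the control (0.86). Cd151, a tetraspanin bound to that integrin, had 206 TPM in co-culture and 210 TPM in the control (-0.03). Itgb4, the partner of Itga6 in hemidesmosomes, had 8.95 TPM in co-culture and 7.80 TPM in the control (0.18). In the keratin list 1 of 18 was detected, Krt80, at 11.6 TPM in co-culture and 7.31 TPM in the control (0.60).

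Most detected epithelial and mesenchymal factors outside the 45 genes had higher values in co-culture, as did 64.5% of all detected genes (median ratio 0.17). Of 26 epithelial factors 11 were detected and 9 had higher values, with a median ratio of 0.54. Spint1, a membrane protease inhibitor, had 22.5 TPM in co-culture and 11.4 TPM in the control (log2 ratio 0.92), Cd24a had a ratio of 0.92 as well, and Klf5 and Spint2 had ratios of -0.31 and 0.02. Of 29 mesenchymal genes 17 were detected and 12 had higher values, with a median ratio of 0.27. Nes, which encodes the intermediate filament protein nestin, had 14.5 TPM in co-culture and 5.43 TPM in the control (1.27). S100a4, a calcium-binding protein gene of motile cells, had 5110 TPM in co-culture and 2291 TPM in the control (1.16). The receptor kinase gene Axl and the chromatin gene Hmga2 had ratios of 0.08 and 0.56.

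**Figure D4:**
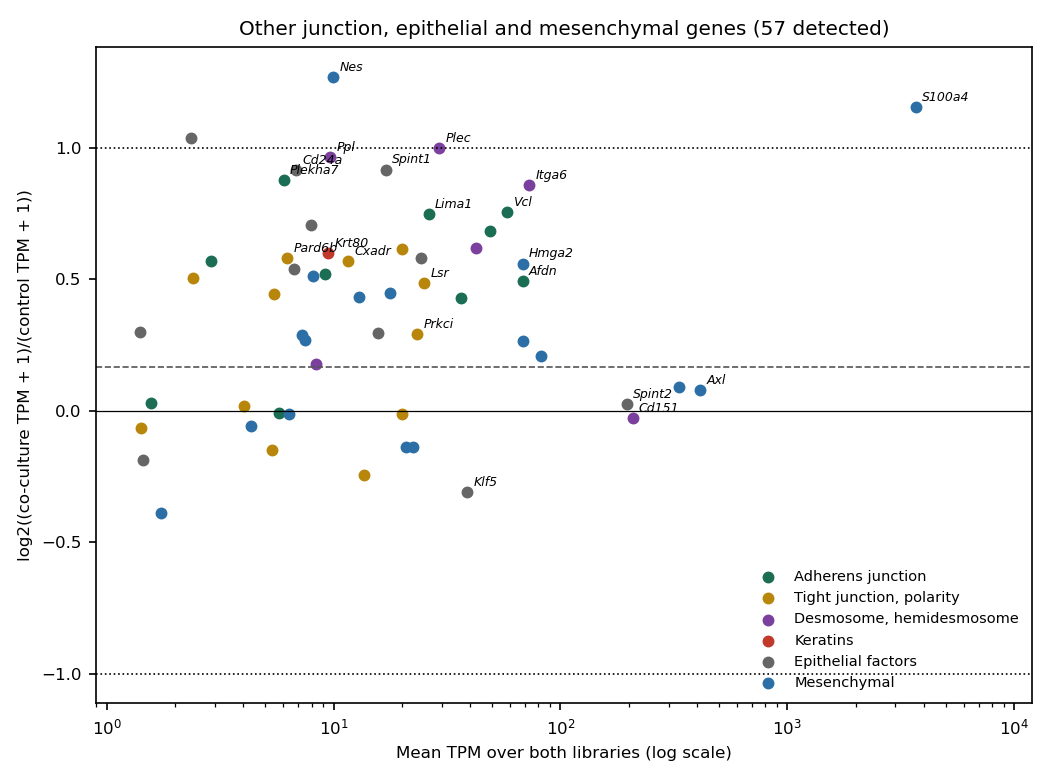
Mean level (log axis) against log2 ratio of co-culture to control for the 57 detected genes of the 6 further lists, coloured by list, 1 library a group. The dashed line is the median of all detected genes (0.17) and the dotted lines mark 2-fold. Of the 3 genes above 2-fold, Nes and S100a4 are labelled, and no gene is 2-fold lower.

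Marker lists were set against the cell label, but no other profile of 4T1 cells was at hand, so that the cell line is unverified. The values therefore describe these libraries, and whether they hold for 4T1 cells in general was not tested. Of 12 luminal mammary markers 6 were detected (Krt7, Krt8, Krt18, Krt19, Gata3 and Cd24a), with Krt19 at only 0.18 TPM in the control. The 6 not detected were Epcam, Elf5 and Pgr, at 0 in both libraries, Cdh1, near 0, and Foxa1 and Esr1, at or under 0.45 TPM. Of 9 basal and myoepithelial markers 0 were detected, with a summed level of 1.73 TPM in co-culture and 1.22 TPM in the control. The fibroblast list had 2 of 12 detected and a sum of 13.0 TPM in co-culture and 9.29 TPM in the control, mostly from Pdgfra, with Col1a1, Col3a1 and Dcn at or under 0.17 TPM. The endothelial list had 0 of 6 detected. Of 14 macrophage markers 2 were detected, Cd68 at 27.8 TPM in co-culture and 57.7 TPM in the control and Cd14 at 12.4 TPM in co-culture and 8.87 TPM in the control. Of the 12 macrophage markers not detected 8 were at 0 in both libraries, among them Ptprc, Adgre1, Itgam, Tyrobp and Fcer1g. The rest were traces. Aif1 had 0.27 TPM in co-culture and 0 in the control, and Lyz2 had 0.04 TPM and 0. Mrc1 had 0.08 TPM in co-culture and 0.05 TPM in the control, and Csf1r had 0.01 TPM and 0.03 TPM. The part of Cd68 and Pdgfra, which differed between the libraries, in the values of the 45 genes was not tested.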

How the data were processed

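RNA of 1 control and 1 co-culture library of cells labelled 4T1 was analysed. The source was the table of TPM values that the authors deposited, which has 52796 rows and 1 column per library. TPM is scaled per library and keeps no sequencing depth, so the depth is unknown and no counting interval is given. HISAT2 2.1.0, RSEM 1.2.31 and GRCm38.p5 are named in the submitters' processing notes, without roles. No source used here gives the annotation release, filters or strandedness. Without known strandedness, values of genes that overlap on opposite strands are uncertain, and so are those of paralogs that share reads.

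Symbols and positions came from GENCODE M21 (GRCm38), which gave a symbol to 51633 of 51912 Ensembl identifiers, and promoter windows came from RefSeq. The remaining rows are assembled loci and entered no comparison. Log2 ratios used a pseudocount of 1 TPM, detection a mean of at least 1 TPM, and the 2-fold rule a log2 ratio of 1. Of the further genes, up to 3 with the largest ratio and 2 with the highest level per list were named, apart from some that are not reported here. Others, including the family counts, were chosen after their values were seen. The members and lists were chosen with earlier results of these data known. The alternatives were pseudocounts of 0.1 and 5, minimum means of 0.5 and 10 TPM or none, a 1.5-fold limit, scaling by the median gene (over genes averaging 10 TPM or more), an unweighted TMM factor (30% of ratios and 5% of means trimmed), and totals taken without mitochondrial genes and the 20 most abundant. The ratio rule was tried on simulated data, with changes well past 2-fold in genes well above the detection limit. That trial does not show how the rule works near 2-fold or at low levels. Python 3.11.15, pandas 2.3.3, NumPy 2.4.6 and matplotlib 3.10.9 were used.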

Additional observations from a re-analysis of the deposited data

Results flagged for a closer look

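Rows of assembled loci, which entered no comparison, held 6.47% of the co-culture TPM and 4.38% of the control TPM. The table gives no positions for these rows, so whether any of them overlaps one of the 45 genes was not tested.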

How the results depend on the processing

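With no expression filter, 0 members count as undetected by construction, and the median ratio of all 45 was 0.03. The count of members at least 2-fold higher was 0 with a pseudocount of 5 and 0 with a minimum mean of 10 TPM, against 1 as reported, and the count 2-fold lower was 0 with that minimum, because Krt19 and Cdsn have lower means. At a 1.5-fold limit 6 members were higher and 1 lower, against 18.6% and 6.37% of all detected genes. Over all detected genes, 1211 passed 2-fold in either direction with a pseudocount of 0.1, 328 with a pseudocount of 5 and 364 with a minimum mean of 10 TPM, against 798 as reported. The median of detected members ran from 0.12 (TMM factor) to 0.32 (pseudocount of 0.1) among the alternatives that kept a filter. The median of the desmosome genes was -0.09 as reported and 0.27 with a minimum mean of 10 TPM, which leaves out Cdsn. Ctnna1 changed direction with the median gene and TMM scalings and Krt18 with the TMM factor, all at sizes under 0.1. No replicate could be left out, since each group had 1 library, and no paired analysis was possible because each group had 1 library. Low levels limit Krt19, Esrp2 and the undetected genes most.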

Other observations

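Protocadherins are relatives of the cadherins that act mainly in weak or signalling contacts. Of them 7 of 69 genes were detected, against 1 of 23 cadherins, a comparison made after the values were seen and not tested. Both families were thus mostly undetected, where 52.4% of all protein-coding genes were undetected. All 7 detected protocadherins had higher values in co-culture as deposited, where 64.5% of all detected genes were higher. The ratio of Pcdh1 was under the log2 shifts of 0.12 and 0.19 that the other scalings bring. Pcdhgb6 only just met the detection limit, with 1.24 TPM in co-culture and 0.76 TPM in the control. Pcdhgc3 had 34.8 TPM in co-culture and 23.1 TPM in the control (log2 ratio 0.57), and Pcdhgc4 had 13.1 TPM in co-culture and 8.47 TPM in the control (0.57). Pcdhgc3, Pcdhgc4, Pcdhgb6 and Pcdhgb7 all belong to the gamma cluster, whose genes share their last exons. The division of reads among them is uncertain, so the 7 values are not independent. Pcdh11x had 7.66 TPM in co-culture and 2.64 TPM in the control (1.25), the one protocadherin past 2-fold. Pcdh1, which is expressed in epithelia, had 9.31 TPM in co-culture and 8.71 TPM in the control (0.09).

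Among relatives of occludin, Marveld1 was detected at 17.1 TPM in co-culture and 13.8 TPM in the control (log2 ratio 0.29), above Ocln in both libraries, while Marveld2 and Marveld3 were not detected. Cldn9, which lies beside Cldn6 on chromosome 17, had 1.36 TPM in co-culture and 1.47 TPM in the control (-0.07).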
